A study of Mus musculus with 26 samples.

Results

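Zfp703 (ENSMUSG00000085795) and Zfp503 (ENSMUSG00000039081) are a pair of related zinc finger genes, and they were chosen from the 2189 genes of an RNA-seq table of mouse embryonic stem cells with earlier results of the same data known. The pair makes up 2 of these 2189 genes. Every ATAC-seq peak and every dynamic enhancer region within 300 kb of either gene was added by position alone, together with the other genes of the table in that span. Overlapping peaks of the 2 deposited lists were joined into accessible sites, of which 80 lay around Zfp703 and 43 around Zfp503, out of 180036 in all.

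The cells were E14, 1 line of mouse embryonic stem cells, grown without feeder cells in medium with leukemia inhibitory factor (LIF), which keeps them pluripotent. For the last 4 h before harvest they received fresh medium with LIF (mESC+) or fresh medium without LIF and with 1 µM retinoic acid (mESC-). Withdrawal of LIF and addition of retinoic acid happened together, so their parts in a difference cannot be told apart. ATAC-seq, which marks accessible DNA, had 1 library per state, the histone marks behind the enhancer predictions had 1 library per mark and state, and RNA-seq had 3 libraries per state. A difference between the states at an accessible site therefore has no replicate check, and none was tested. The deposited lists carry no read totals, and the depth of each library is unknown.

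Zfp703 and Zfp503 (also called Nolz1) encode the vertebrate relatives of the fly proteins Elbow and No ocelli. These proteins act in the nucleus as repressors of transcription and work with corepressors of the Groucho (TLE) family. Retinoic acid binds the retinoic acid receptors, which sit on DNA as partners of RXR. They recognize direct repeats of a short half-site, most often spaced by 5 bases (DR5) or by 2 bases (DR2).

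Exact DR5 repeats were present near mESC- summits at both loci, and they are shown because the site of highest fold enrichment among those called only in mESC- held such a repeat at each locus. The half-sites searched were AGGTCA or AGTTCA or GGGTCA or GGTTCA, in any combination, on both strands, in windows of 300 bp around each summit. The sequences are from GRCm38.p6 on the plus strand, with the repeat in capitals. First come both whole mESC- peaks, 1 at each locus, that had no overlapping mESC+ peak. The first lies at chr8:26844541-26844827, in an intron of the long noncoding RNA gene 2310008N11Rik, upstream of Zfp703. The second lies at chr14:22204006-22204243, in an intron of Lrmda, upstream of Zfp503.
Zfp703 upstream, 287 bp: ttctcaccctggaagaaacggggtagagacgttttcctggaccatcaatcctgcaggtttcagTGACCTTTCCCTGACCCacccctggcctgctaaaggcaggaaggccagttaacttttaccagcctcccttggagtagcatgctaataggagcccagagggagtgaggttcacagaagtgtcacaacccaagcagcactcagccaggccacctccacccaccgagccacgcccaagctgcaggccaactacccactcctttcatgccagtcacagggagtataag
Zfp503 far upstream, 238 bp: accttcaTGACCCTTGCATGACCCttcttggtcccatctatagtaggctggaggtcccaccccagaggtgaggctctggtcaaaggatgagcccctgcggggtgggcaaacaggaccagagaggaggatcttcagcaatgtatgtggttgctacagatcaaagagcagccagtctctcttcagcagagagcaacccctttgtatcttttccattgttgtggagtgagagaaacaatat

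The other 3 exact repeats are shown in stretches of 137 bp. Those of the Zfp703 locus lie at chr8:26846834-26846970, in the same intron as the first peak, and at chr8:27058247-27058383, between genes and downstream of Zfp703. That of the Zfp503 locus lies at chr14:22155244-22155380, also in an intron of Lrmda.
Zfp703 upstream, second: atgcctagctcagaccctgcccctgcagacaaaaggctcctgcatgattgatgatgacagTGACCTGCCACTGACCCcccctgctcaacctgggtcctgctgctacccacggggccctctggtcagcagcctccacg
Zfp703 downstream: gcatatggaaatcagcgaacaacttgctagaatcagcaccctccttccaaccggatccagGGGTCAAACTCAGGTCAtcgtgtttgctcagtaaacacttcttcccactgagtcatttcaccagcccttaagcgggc
Zfp503 upstream: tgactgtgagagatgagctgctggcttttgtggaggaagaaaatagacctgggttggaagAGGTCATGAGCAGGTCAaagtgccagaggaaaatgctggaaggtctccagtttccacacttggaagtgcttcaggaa

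Read on the strand that carries the half-sites, the repeat of the first peak was GGGTCAgggaaAGGTCA, with half-sites in capitals. That of the strong Lrmda peak was GGGTCAtgcaaGGGTCA and that of the weaker Lrmda peak AGGTCAtgagcAGGTCA. The spacers differed between all 3.

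Both genes were low among the genes of the RNA-seq table. Zfp703 had a mean normalized count of 48.0 and Zfp503 of 13.1, both given by the authors as means over all 6 libraries, and the values of single libraries are not analysed here. The median over the 2189 genes was 626. Of the listed genes, 11.1% had a lower mean than Zfp703 and 2.88% a lower mean than Zfp503. Per kb of exon the mean count was 14.2 for Zfp703 and 3.10 for Zfp503, against a median of 138 over the 2188 listed genes placed in the annotation. The table held only 9.04% of all protein-coding genes, and Pou5f1 and Nanog were not in it. Here and below, shares of the listed genes therefore describe this table and not all expressed genes. A mean over both states says nothing of a direction, so being in the table is not read here as a rise or a fall. The antisense gene Gm45371 overlaps Zfp703, and whether the counting used the strand is not given in the sources used here.

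**Figure D1:**
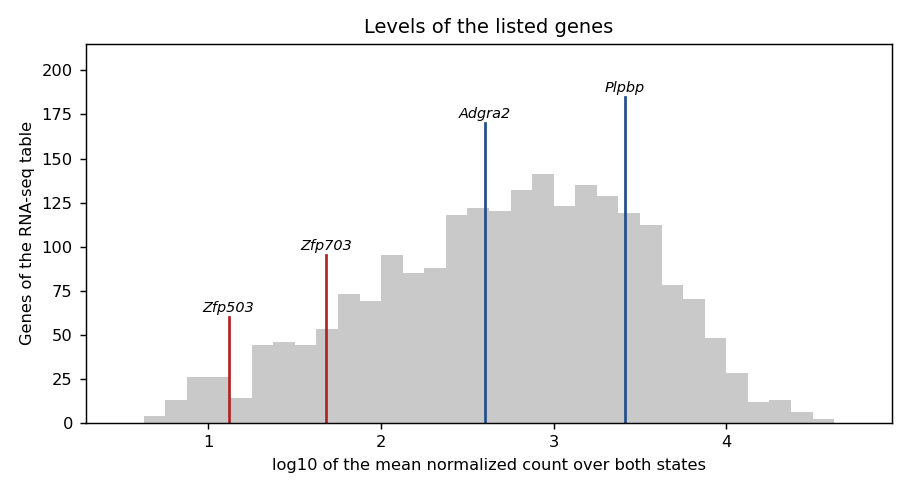
Distribution of the authors' mean normalized counts over all 6 RNA-seq libraries for the listed genes, on a log10 axis, with lines at Zfp503, Zfp703, Adgra2 and Plpbp (the height of a line has no meaning). Zfp503 at 13.1 and Zfp703 at 48.0 lie in the lower tail, while Plpbp at 2590 lies to the right of the median of 626.

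The neighbourhoods of the pair held 2 other listed genes, both near Zfp703. Within 300 kb of Zfp703 were 22 other annotated genes, 8 of them protein-coding, and 2 were listed. Plpbp, which encodes a protein that binds the vitamin B6 cofactor, had a mean normalized count of 2590, or 205 per kb of exon. Adgra2, an adhesion G protein-coupled receptor, had a mean of 399, or 69.1 per kb. Within 300 kb of Zfp503 were 14 other genes, 6 of them protein-coding, and 0 were listed. The share of listed genes among all protein-coding genes was 9.04%. With so few neighbours, these counts are not read as a difference between the loci.

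The corepressor partners were compared as a group of 9 genes. Of these, 4 were in the RNA-seq table, namely Tle1 with a mean normalized count of 1806, Tle2 with 49.8, Tle4 with 9318 and Aes, a short relative of the TLE proteins, with 4117. Tle3, Hdac1, Hdac2, Dcaf7 and Phb2 were not listed. The lowest mean among the listed genes was 4.62, and a gene missing from the table was not taken as not expressed. Of all protein-coding genes, 9.04% were listed. A peak within 1 kb of the gene start was present for 9 of 9 in mESC+ and 8 of 9 in mESC-, against 67.7% and 66.4% of all protein-coding genes. Only the outermost annotated start of each gene was used, so a promoter inside a gene was not counted. The exception in mESC- was Aes, whose mESC+ peak was weak, with a fold enrichment of 3.08. Of the 8 stem cell markers, 7 had such a peak in each list, Esrrb being the exception. Sox2, Klf4 and Zfp42 were listed, and Pou5f1, Nanog, Esrrb, Tfcp2l1 and Dppa5a were not. Of the 7 markers of primitive endoderm, trophoblast and fibroblasts, Gata6, Eomes and Thy1 were listed, with means of 54.1, 309 and 126. A start peak was present in each list for 2 of 3 markers of primitive endoderm, 2 of 2 of trophoblast and 2 of 2 of fibroblasts. Start peaks therefore did not set the stem cell markers apart.

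At the gene starts, the states differed little. The start of Zfp703 (chr8:26977325-26981461, plus strand) had a peak with a fold enrichment of 8.32 in mESC+ and of 8.45 in mESC-. Ranked within its own list from 0 to 100, it stood at the percentile of 65.7 in mESC+ and of 69.1 in mESC-. The start of Zfp503 (chr14:21983959-21989601, minus strand) had a far weaker peak, with fold enrichments of 3.86 and 4.07 and percentiles of 5.39 and 7.39. Of all sites with peaks in both lists, 29.4% stood higher in mESC- by at least as many points as the Zfp703 start and 33.4% by at least as many as the Zfp503 start, so neither difference stood out.

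The 250 bases before the start of Zfp503 had a GC content of 57.2% with 13 CG dinucleotides. They held 0 DR5 or DR2 repeats, with up to 1 mismatch allowed. They span chr14:21989602-21989851 in GRCm38.p6 and are shown 5′ to 3′ on the strand of the gene, because its weak start peak reaches into them.
Zfp503 promoter: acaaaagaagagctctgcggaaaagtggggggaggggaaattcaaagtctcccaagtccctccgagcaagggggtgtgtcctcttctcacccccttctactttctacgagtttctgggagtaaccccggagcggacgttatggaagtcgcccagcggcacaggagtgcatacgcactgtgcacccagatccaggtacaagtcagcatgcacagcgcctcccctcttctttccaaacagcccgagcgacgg

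Inside the genes, peaks were weak, and the sites found in 1 list only were all in mESC+ and near the bottom of that list. Over all sites, 23.7% were in mESC+ only, and the sites here are too few for a comparison. In the coding sequence of Zfp703, 1 site was present in mESC+ only, with a fold enrichment of 3.37 at the percentile of 1.88. Another was in both lists, with fold enrichments of 3.74 in mESC+ and 4.09 in mESC-. In the coding sequence of Zfp503, 2 sites were present in mESC+ only, with fold enrichments of 2.59 and 3.19 and percentiles of 0.0447 and 0.998. A site in the UTR of Zfp503, 1.70 kb from the start, had a fold enrichment of 4.67 in mESC+ and 5.43 in mESC-, a change in percentile from 19.6 to 33.3. It held a DR5 with 1 mismatch, AGGTGAttggaGGGTCA.

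Around Zfp703, more sites were found in the mESC- list alone than in the mESC+ list alone. Of its 80 sites, 14 had a peak in the mESC- list only and 9 in the mESC+ list only, that is 17.5% and 11.2%. Some of either kind lay close to a shared site without overlap and were counted apart. Examples are chr8:27154159-27154380 in mESC- only, beside chr8:27153589-27154126, and chr8:27260785-27260897 in mESC+ only, beside chr8:27260125-27260601. Over all sites, 11.0% were in the mESC- list only and 23.7% in the mESC+ list only. A share of sites in mESC- only as high as that of Zfp703 was found for 6.44% of the listed genes, and a share in mESC+ only as high for 98.2%. The size of this excess depended on which peaks were kept. With a −log10 q of at least 10, 7.32% of the sites around Zfp703 were in mESC- only, against 7.02% of all sites, and 22.0% were in mESC+ only, against 25.8%. Of the single-list sites of the full lists, 2 in mESC- only and 0 in mESC+ only reached this limit. The others counted here were shared sites with 1 peak below it. With the 50000 strongest peaks of each list, 27.3% were in mESC- only, against 16.0% of all sites, and 9.09% in mESC+ only, against 16.1%. In the full lists, single-list sites here had fold enrichments of at most 7.18 in mESC- and 5.77 in mESC+, too low for this set. All sites counted in 1 list with this limit were therefore shared sites of the full lists that had lost a peak.

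With all peaks, the locus of Zfp503 had shares near those of all sites. Of its 43 sites, 4 (9.30%) were in the mESC- list only and 10 (23.3%) in the mESC+ list only. Its mESC- peaks were fewer, 34 against 40 in mESC+, while around Zfp703 they numbered 73 and 71. Stricter peak sets gave other shares. With a −log10 q of at least 10, 5 of 25 sites, or 20%, were in mESC- only, against 7.02% of all sites, and 12% in mESC+ only, against 25.8%. Only 1 of these 5 had no mESC+ peak in the full list, and the other 4 were shared sites whose mESC+ peak was below that limit. With the 50000 strongest peaks, 31.6% were in mESC- only, against 16.0%, and 21.1% in mESC+ only, against 16.1%. Of these sites in mESC- only, just the strong Lrmda peak had no mESC+ peak in the full list. With both limits, the sites in mESC+ only were shared sites of the full lists.

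**Figure D2:**
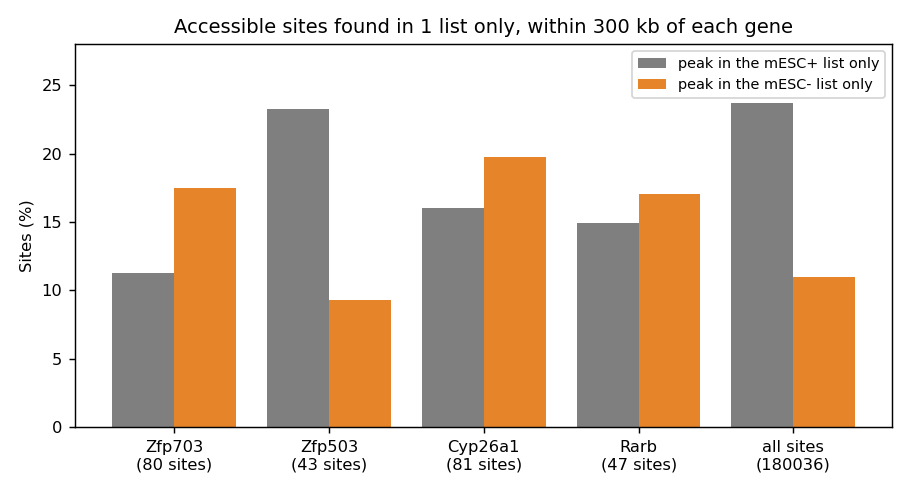
Share of accessible sites with a peak in only 1 of the lists, in percent, within 300 kb of each named gene and over all sites, with grey bars for mESC+ and orange bars for mESC-. Zfp703 has the higher bar in mESC- (17.5% against 11.2%), while Zfp503 (9.30% against 23.3%) resembles all sites (11.0% against 23.7%).

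Sites with peaks in both lists were compared by percentile. Around Zfp703, 5 of 57 such sites (8.77%) stood at least 10 points higher in mESC- and 17 (29.8%) at least 10 points higher in mESC+. Over all shared sites these shares were 16.2% and 30.0%. Around Zfp503, 7 of 29 (24.1%) stood at least 10 points higher in mESC- and 6 (20.7%) at least 10 points higher in mESC+. The median change was -6.05 points around Zfp703 and 2.00 around Zfp503, against -2.49 over all shared sites. Counted in either size, 13 of 57 sites around Zfp703 and 18 of 29 around Zfp503 ranked higher in mESC-, against 40.7% of all shared sites. With only the 50000 strongest peaks of each list, these shares were 28.6% around Zfp703, 77.8% around Zfp503 and 52.2% over all.

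The Zfp703 locus was divided by side. Upstream of the gene lay 16 sites, and 7 of them (43.8%) were in mESC- only, against 11.0% of all sites. Of these 7, those in the dynamic enhancer region described below had −log10 q values of 10.5 and 15.0, and the others at most 6.14. Shares by side were computed for the pair only. Downstream lay 64 sites, and 7 of them (10.9%) were in mESC- only, near the share of all sites. Of the 7 shared upstream sites, 4 ranked higher in mESC-. Of the 50 shared downstream sites, 41 ranked higher in mESC+, against 59.3% of all shared sites. The downstream side holds all 8 other protein-coding genes of the span. In 2310008N11Rik, on the upstream side, 4 of 7 sites were in mESC- only and 0 in mESC+ only. At the Zfp503 locus, the sites in mESC- only numbered 2 of 16 upstream and 2 of 27 downstream.

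**Figure D3:**
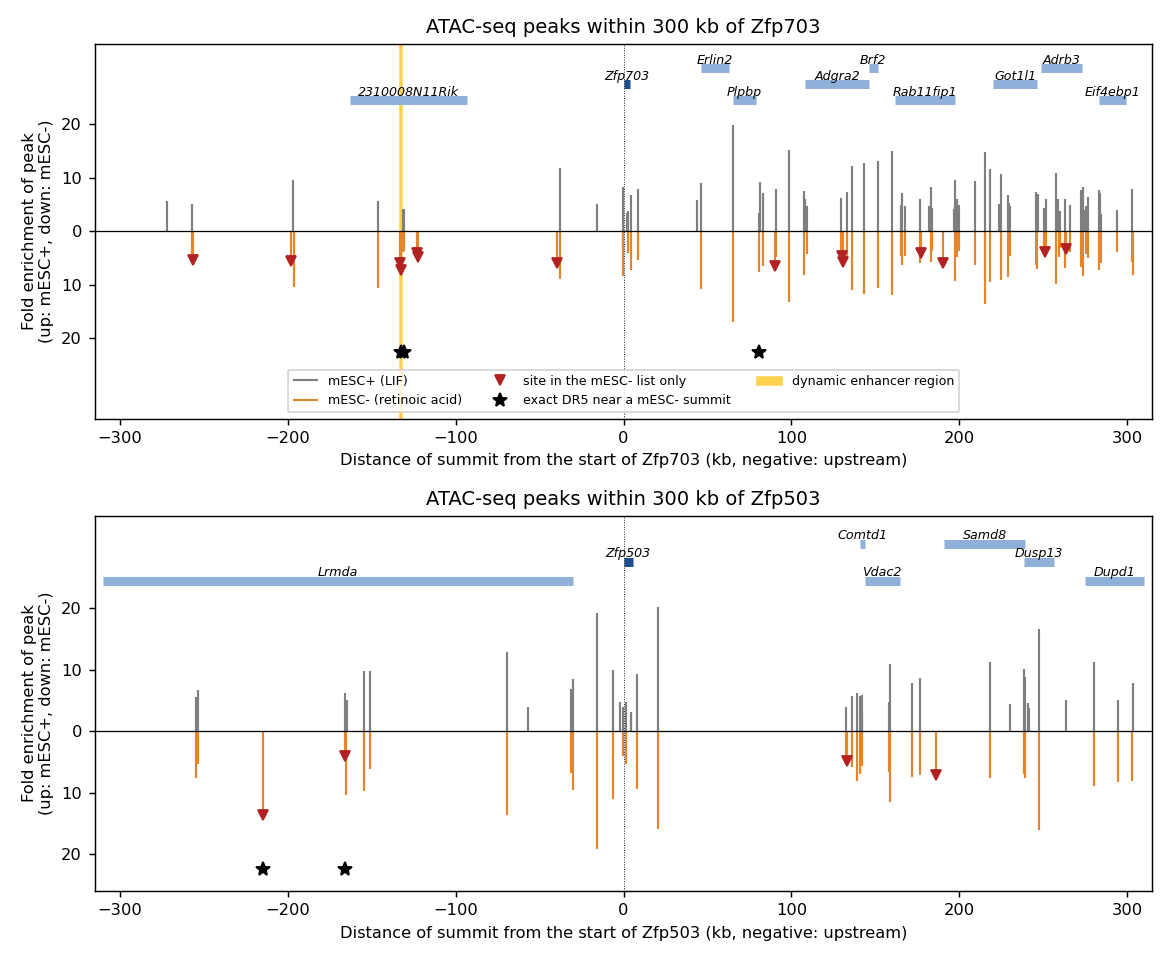
Fold enrichment of every ATAC-seq peak within 300 kb of Zfp703 (top) and Zfp503 (bottom) against the distance of its summit from the gene start in kb, with mESC+ peaks drawn upwards in grey and mESC- peaks downwards in orange. Red triangles mark sites in the mESC- list only, stars mark exact DR5 repeats near a mESC- summit, the yellow band is the dynamic enhancer region, and blue bars are the protein-coding genes and 2310008N11Rik (Lrmda and Dupd1 run past the plotted span). The triangle with the highest fold enrichment, 13.6, lies over Lrmda and has no grey peak above it.

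The dynamic enhancer region of the Zfp703 locus lay in 2310008N11Rik. It spanned chr8:26843601-26845600, or 2000 bp, and ended 131.7 kb before the gene. Its probability of being an enhancer, a fraction from 0 to 1, was 0 with LIF and 0.99 after retinoic acid. Of the 141 dynamic regions with the higher probability in mESC-, 11 reached 0.99, and the median was 0.911. No second region was within 300 kb, and the nearest region with the higher probability in mESC+ was 3224 kb away. The authors had shown the region in 2310008N11Rik as an example with a retinoic acid receptor motif, receptor occupancy and a higher ATAC-seq signal. They also tested it in a reporter assay. Its repeat and its accessible sites are therefore no independent result.

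The region held 2 accessible sites, both in the mESC- list only. The first, chr8:26844133-26844472, had a fold enrichment of 5.96 in mESC-, at the percentile of 42.8. The second is the 287-bp peak shown above, with a fold enrichment of 7.18 at the percentile of 58.0 and a −log10 q of 15.0. Of all sites in mESC- only, 3.2% had a fold enrichment as high. Of the 141 regions, 43 (30.5%) held a site in mESC- only, and in 16 of them, this one included, no other kind of site was present. Beside the exact DR5, the second site held 2 DR5 matches with 1 mismatch, AGGCCAggggtGGGTCA and GGTTCAcagaaGTGTCA. An exact DR5 or DR2 was present in 29.1% of these regions, and in 2.69% of the 186 regions with the higher probability in mESC+.

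**Figure D4:**
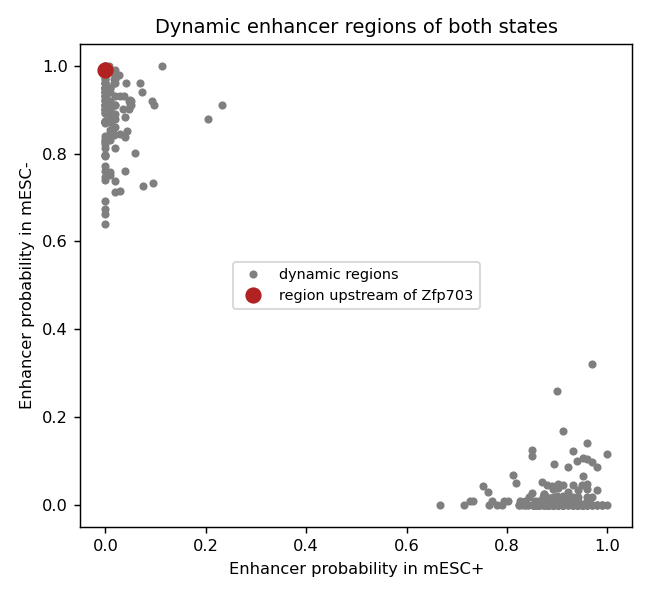
Enhancer probability in mESC- against that in mESC+ for all 327 dynamic regions, both between 0 and 1, with the region upstream of Zfp703 in red. It lies in the upper left corner, at 0 in mESC+ and 0.99 in mESC-.

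Zfp503 had 0 dynamic regions within 300 kb. The nearest with the higher probability in mESC- was 3596 kb away and the nearest with the higher probability in mESC+ 2121 kb away. Of the 2188 listed genes that could be placed, 1912 had no region of the first kind within 300 kb, and 276 (12.6%), among them Zfp703, had at least 1. Pim1, a serine/threonine kinase gene, had the most with 4, and Ap5z1, Cpne5, Fam131c, Gm17657, Radil and Tnrc18 had 3 each. Genes that lie close together share such regions.

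The strongest site in mESC- only at the Zfp503 locus was in Lrmda, a large gene linked to melanocyte differentiation. The 238-bp peak shown above, with its centre at -214.5 kb (negative distances lie upstream), had a fold enrichment of 13.6 in mESC- and no overlapping peak in mESC+. Its percentile was 92.4 and its −log10 q was 23.3. Of the 19885 sites in mESC- only, it ranked 2 by fold enrichment. The enhancer list held no region there.

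A second site in Lrmda ranked higher in mESC-. This site, chr14:22155077-22155421, had a fold enrichment of 6.18 in mESC+ and 10.3 in mESC-, and its percentile went from 44.8 to 80.5. Of all shared sites, 1.58% stood higher in mESC- by as many points. Its exact DR5 lay inside the mESC- peak and outside the narrower mESC+ peak. Next to it, a weak site was in mESC- only, with a fold enrichment of 4.02. Another shared site in Lrmda, chr14:22140244-22140408, went the other way, from a fold enrichment of 9.82 in mESC+ to 6.10 in mESC- and from the percentile of 75.9 to 44.0. Over the 12 sites in Lrmda, 2 were in mESC- only, 2 in mESC+ only and 8 in both, and 5 of the 8 ranked higher in mESC-.

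The other exact repeats of the Zfp703 locus were not at sites with a higher fold enrichment in mESC-. The upstream one lay just outside a weak shared peak in 2310008N11Rik, with fold enrichments of 4.21 in mESC+ and 3.73 in mESC- and percentiles of 10.8 and 3.92. The downstream one lay in a shared peak with fold enrichments of 9.29 and 7.59 and percentiles of 72.8 and 60.6. The shared site of this locus with the largest difference in percentile in favour of mESC- was found without an exact repeat. This site, chr8:26831248-26831438, also in 2310008N11Rik, went from a fold enrichment of 5.62 to 10.7 and from the percentile of 36.3 to 82.1, and 0.521% of all shared sites had a difference as large. The largest difference in percentile of fold enrichment in favour of mESC+ was at chr8:27068079-27068271, between genes and 90.8 kb downstream, from a fold enrichment of 7.97 to 4.89 and from the percentile of 64.0 to 22.4. By the ratio of fold enrichments, the difference was larger at a site in the UTR of Adrb3, with a ratio of mESC- to mESC+ of 0.523 against 0.613. At the Zfp503 locus, a shared site in an intron of the phosphatase gene Dupd1, without an exact repeat, went from a fold enrichment of 5.05 to 8.30 and from the percentile of 26.3 to 67.5. This was the largest difference in percentile there, while by the ratio of fold enrichments the Lrmda site with the exact DR5 was higher, with 1.67 against 1.64.

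**Figure D5:**
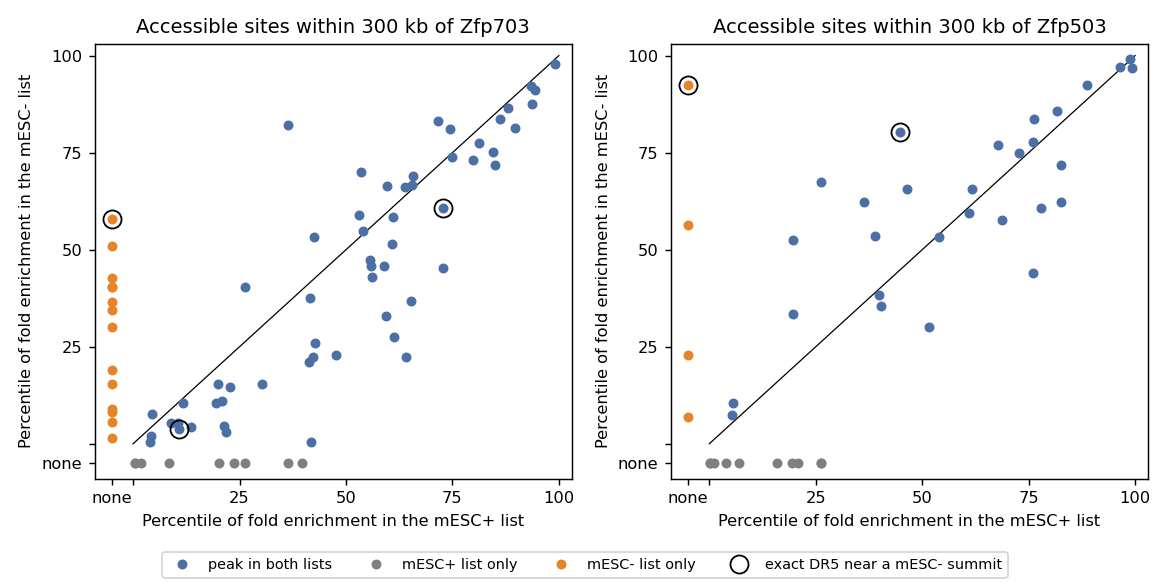
Percentile of fold enrichment of each accessible site in the mESC- list against that in the mESC+ list, around Zfp703 (left, 80 sites) and Zfp503 (right, 43 sites), with sites of 1 list placed at "none" and exact DR5 repeats near a mESC- summit circled. Around Zfp703 most blue points lie below the line of equal rank (44 of 57), while around Zfp503 most lie above it (18 of 29), and the circled site at "none" of Zfp503 stands at 92.4.

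Exact repeats were counted in all windows for comparison. An exact DR5 or DR2 was found in 3 of 73 mESC- windows around Zfp703 and 2 of 34 around Zfp503, each of them a DR5, against 0.943% of all mESC- windows. In mESC+ it was 0 of 71 and 1 of 40, against 0.6%. These counts follow where the summits lie, and 2 of the 3 repeats around Zfp703 were at sites that also had a mESC+ peak. The downstream repeat lay inside that mESC+ peak, farther from its summit than the window reached. With 1 mismatch allowed, the counts in mESC- were 9 and 4, against 6.35% of all windows. Of the listed genes, 1.92% had at least as many exact DR5 windows within 300 kb as Zfp703, 5.03% at least as many as Zfp503, and 74.9% had none. These shares are descriptive, since the loci were chosen with earlier results known and the count for Zfp703 includes the repeat in the dynamic region. In the whole mESC- list, 43.6% of the 567 peaks with an exact DR5 had no overlapping mESC+ peak, against 14.1% of all mESC- peaks.

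Genes known as targets of retinoic acid were examined in the same way. Cyp26a1, which encodes an enzyme that degrades retinoic acid, had 5 exact DR5 windows in mESC- and the receptor gene Rarb had 1. Of their sites, 19.8% at Cyp26a1 and 17.0% at Rarb were in mESC- only, beside 17.5% at Zfp703 and 9.30% at Zfp503. Over all sites the share was 11.0%. These shares are for all peaks, and stricter peak limits were not applied at Cyp26a1 or Rarb. Of their shared sites, 10 at Cyp26a1 and 8 at Rarb stood at least 10 points higher in mESC-, and 24 and 8 in mESC+. Neither gene had a dynamic region within 300 kb. Their mean normalized counts per kb of exon were 676 and 6.67, so that Rarb lay between Zfp703 and Zfp503. With no values per library, it cannot be said which of these levels differ beyond their spread.

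The strongest peaks of both loci were shared. Around Zfp703, the highest fold enrichment, 19.9 in mESC+ and 17.0 in mESC-, was at the start of Plpbp and its antisense gene Proscos. Further high mESC+ values of 15.2 and 14.9 were found between genes, at 98.9 and 159.8 kb downstream, with 13.1 and 12.0 in mESC-. The site at 215.2 kb had 14.8 in mESC+ and 13.6 in mESC-. Around Zfp503, the sites at 20.4 kb downstream and at -15.6 kb, both between genes, had fold enrichments of 20.2 and 19.2 in mESC+ and of 16.0 and 19.2 in mESC-. A site in introns of Dusp13, a phosphatase gene, had 16.7 and 16.2.

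The span of 300 kb was a choice. The last site inside it at the far end of the Zfp703 locus lay 298.4 kb from the gene, with percentiles of 64.0 in mESC+ and 66.0 in mESC-, and the next outside lay 379.3 kb away and was in mESC+ only, at 22.2. On the upstream side the last inside, 271.6 kb away, was in mESC+ only at 36.3, and the next, 311.2 kb away, stood at 57.5 and 62.4. For Zfp503, the downstream sites next to the limit, 297.3 and 300.9 kb away, stood at 61.6 and 55.6 in mESC+ and at 65.7 and 59.4 in mESC-. Upstream, the last site inside lay 254.4 kb away, with 36.3 in mESC+ and 62.4 in mESC-, and the next 584.4 kb away, with 76.1 and 53.4.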

How the data were processed

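For RNA-seq, the authors mapped reads of 3 libraries per state to GRCm38 and ran DESeq2. Of their deposited table, gene identifiers and the mean normalized signal (counts divided by size factors, averaged over all 6 libraries) were used. Its columns of fold changes, errors, test statistics and p-values, and the p-value and cluster columns of the enhancer list, hold the authors' own comparisons and were not used. The methods name BWA-MEM for RNA-seq, and the submitters' processing notes also list STAR 2.5.1b. For ATAC-seq, the authors mapped reads with BWA-MEM and called peaks per library with MACS2, whose parameters are not given in the sources used here. Each deposited peak has a fold enrichment, a ratio over the local background, as well as −log10 p and −log10 q values. The enhancer probability is a fraction between 0 and 1 that the authors computed with CRUP from H3K4me1, H3K4me3, H3K27ac and input.

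Peaks of both lists that overlapped by at least 1 bp formed a site, with the value of its highest peak in each list. Fold enrichments were turned into percentiles within each list (163484 peaks in mESC+, 141465 in mESC-), and a shared site was counted as higher from a difference of 10 points. Coordinates are 1-based, and 78 and 62 peaks outside the main chromosomes were left out of motif windows. Genes came from GENCODE vM21 and sequences from RefSeq's GRCm38.p6. All 2189 identifiers were looked up and 2188 placed. No test between states was run, since peaks and probabilities have 1 value per state. Beyond the pair, the genes named are listed neighbours, corepressor partners, markers, 2 retinoic acid targets and the 5 genes with the most dynamic regions, ties included. The peaks named are start peaks, those in the dynamic region, the 3 strongest per locus and list, and single-list peaks with a −log10 q of at least 10; sites with exact repeats, those in the coding sequence or UTR of the pair, and the largest changes were added after their values were seen. The members and lists were chosen with earlier results of these data known, and a few items are not reported here. The functions for overlaps and motifs passed 11 of 11 checks when tested on simulated data. Python 3.11.15, NumPy 2.4.6, pandas 2.3.3 and matplotlib 3.10.9 were used.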

Additional observations from a re-analysis of the deposited data

How the results depend on the processing

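Values below are in the order Zfp703, then Zfp503. Of 52 alternatives over 16 counts, 19 stayed within 1.5 times of the count reported and 33 did not. Within 100 kb, the peaks were 15 and 13 in mESC+ and 14 and 9 in mESC-, the sites in mESC+ only 3 and 4, those in mESC- only 2 and 0, and the dynamic regions 0 and 0. Among peaks of −log10 q at least 10 there were 39 and 21 in mESC+ and 33 and 23 in mESC-, the sites in mESC+ only 9 and 3, those in mESC- only 3 and 5, the shared sites higher in mESC+ 8 and 2, and those higher in mESC- 3 and 3. With the 50000 strongest peaks, the peaks were 16 and 13 in mESC+ and 20 and 15 in mESC-, the sites in mESC+ only 2 and 4, and those in mESC- only 6 and 6. Such limits also move a shared site to 1 list where 1 of its peaks is lost. From a difference of 20 points, 8 and 3 shared sites were higher in mESC+ and 1 and 4 in mESC-. From a ratio of fold enrichments of 1.5, these were 2 and 1 and 1 and 2. An overlap of 50%, ranks by −log10 p, spans from the gene start, no mismatch and windows at the region's centre moved no count beyond 1.5 times. No paired analysis was possible because single RNA-seq libraries have no values in the table used and ATAC-seq and CRUP have 1 value per state, and for the same reason no replicate could be left out. A site missing from a list fell below the authors' peak threshold, which with unknown depth does not show closed DNA.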
